A study of Mus musculus with 14 samples.

Results

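Afp, Alb, Ambp, Serpina1c, Serpina10, Colec10, Trf, Fga, Fgb and Fgg encode proteins that the liver and, in the embryo, the yolk sac release into plasma. These 10 genes were chosen by name, with earlier results of these data known. All were found, by symbols matched to Ensembl identifiers, in all 14 columns of both count tables. RNA was sequenced from mouse embryoid bodies, the balls of differentiating tissue that embryonic stem cells form in suspension. The control was taken as the iHA-Foxk1 stem cell line. Sample titles of days 3 and 5 name this line with ND, which they do not explain, and those of day 10 say only Control. This control was compared with a Foxk1 KO line, named for loss of the forkhead transcription factor Foxk1. Each genotype is 1 line, and an effect of Foxk1 and one of the line itself cannot be told apart. Both were kept on irradiated mouse embryonic fibroblasts, plated to remove these feeder cells, and then shaken in a mesoderm medium with serum, ascorbic acid and iron-loaded transferrin protein. Control and Foxk1 KO embryoid bodies were collected on days 3, 5 and 10. On day 10 there was a further group, Foxk1 KO with IWR1, a tankyrase inhibitor that keeps Axin from being degraded and thereby dampens canonical Wnt signalling. The labels used here give neither its dose nor its timing. Each of the 7 groups had 2 libraries, 14 in all.

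The day 3 and day 5 libraries held 10574200 to 11621000 counts and the day 10 libraries 34466700 to 52747300. Levels are given in CPM, counts scaled to a fixed library size after TMM scaling. The floor used here, 3 counts, was worth 0.254 to 0.298 CPM in the early libraries and 0.0621 to 0.0827 CPM in the late ones. A gene is called where its adjusted p is under 0.05. Foxk1 was called lower in KO at day 3 (log2 -2.32) and day 5 (log2 -1.90). At day 10 it was 65.0 and 80.1 CPM in control, 71.3 and 41.8 CPM in the libraries labelled Foxk1 KO, and 26.4 and 52.9 CPM with IWR1, with no call in any comparison (adjusted p 0.722 for the KO label against control). The day 10 directions below are therefore those of libraries labelled Foxk1 KO, shortened to KO.

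Albumin carries fatty acids, hormones and drugs in adult plasma, and alpha-fetoprotein, from the neighbouring gene Afp, is its fetal relative and a long-used sign of visceral endoderm and of the fetal liver. Hepatocytes make most plasma proteins, while the visceral endoderm of the yolk sac makes an overlapping set before the liver forms. In both tissues these genes are switched on by a small set of liver-enriched transcription factors, among them HNF4, the FOXA forkhead proteins and C/EBP. The tables do not say which cells a transcript came from. In these bulk libraries, fewer cells of a type and less RNA per cell cannot be told apart.

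The promoters show what several of the genes share, apart from the measurements. A RefSeq promoter, 250 bases before to 50 after the gene's start in GRCm38.p6, was found for 7 of the 10 genes: Afp, Alb, Ambp, Serpina1c, Fga, Fgb and Fgg. Serpina10, Colec10 and Trf were not matched. On both strands, the 6 letters GTTAAT were found in 5 of these 7 (Afp, Alb, Serpina1c, Fga and Fgb), and in 7.10% of all 32851 mouse promoters of that length. TGTTTGC, a forkhead-type core, was found in 4 (Afp, Alb, Ambp and Serpina1c), against 5.07% of all promoters. TTGCNNAA, a C/EBP-type string, was found in 4 (Afp, Alb, Fga and Fgb), against 10.8%. TGTTTAC and the HNF4-type string CAAAGTCCA were in none of the 7, and in 3.65% and 0.475% of all promoters. A match is a description of the letters, and no match says only that these letters are not in the window. The 150 bases before the RefSeq start are given for 5 genes that cover the albumin, serpin and fibrinogen groups, 4 with a match and Fgg without one, with GTTAAT or TGTTTGC, or their reverse complements ATTAAC and GCAAACA, in capitals. The RefSeq start lies before the start of the GENCODE gene by 23 bases for Afp, 27 for Alb, 63 for Serpina1c and 0 for Fgb and Fgg. The stretches are chr5:90490564-90490713 on the plus strand (Afp), chr5:90460720-90460869 on the plus strand (Alb), chr12:103904951-103905100 on the minus strand (Serpina1c), chr3:83049864-83050013 on the minus strand (Fgb) and chr3:83007574-83007723 on the plus strand (Fgg).
Afp: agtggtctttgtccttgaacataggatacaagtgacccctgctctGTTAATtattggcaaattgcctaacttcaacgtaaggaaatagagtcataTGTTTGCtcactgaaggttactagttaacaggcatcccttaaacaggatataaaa
Alb: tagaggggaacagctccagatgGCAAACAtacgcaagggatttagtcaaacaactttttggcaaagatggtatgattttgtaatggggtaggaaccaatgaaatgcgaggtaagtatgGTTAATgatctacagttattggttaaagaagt
Serpina1c: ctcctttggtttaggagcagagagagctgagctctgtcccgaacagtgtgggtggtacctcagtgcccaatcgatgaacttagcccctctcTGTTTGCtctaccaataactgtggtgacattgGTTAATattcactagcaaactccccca
Fgb: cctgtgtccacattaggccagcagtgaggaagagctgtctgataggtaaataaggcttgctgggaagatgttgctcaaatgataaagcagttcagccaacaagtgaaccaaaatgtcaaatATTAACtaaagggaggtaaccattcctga
Fgg: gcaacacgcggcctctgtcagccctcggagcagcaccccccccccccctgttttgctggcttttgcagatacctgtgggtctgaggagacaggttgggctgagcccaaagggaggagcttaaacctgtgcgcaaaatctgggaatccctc
Counted back from the base before the start as -1, GTTAAT lay at -105 to -100 in Afp, -32 to -27 in Alb and -27 to -22 in Serpina1c, and its complement at -29 to -24 in Fgb and -43 to -38 in Fga. The match was thus within 43 bases of the start in Alb, Serpina1c, Fga and Fgb and farther away in Afp.

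At day 10 all 10 genes had their highest mean in control, a lower one in KO and the lowest in KO with IWR1. Control and KO did not overlap for any of the 10, with all 10 lower in KO, while 25.3% of the 17022 genes tested at day 10 were lower without overlap. With edgeR and adjustment over all genes, 5 of the 10 were called lower in KO (Ambp, Serpina10, Colec10, Fgb and Fgg) and 0 higher; of all genes, 5.27% were called, 3.35% lower and 1.92% higher. The median log2 difference was -2.90 for the 10 genes and 0.02 over all genes tested. Because the 10 genes were chosen with earlier results of these data known, the shares of all genes here and below are given as description only. The 5 without a call (Afp, Alb, Serpina1c, Trf and Fga) had log2 differences from -4.17 to -1.58, and all 10 had an unadjusted p under 0.05. Without control library 1 or without control library 2 the number called was 2 in either case, Ambp and Serpina10, and over the removals of single libraries it ranged from 2 to 6. DESeq2 called 9, all but Serpina1c.

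**Figure D1:**
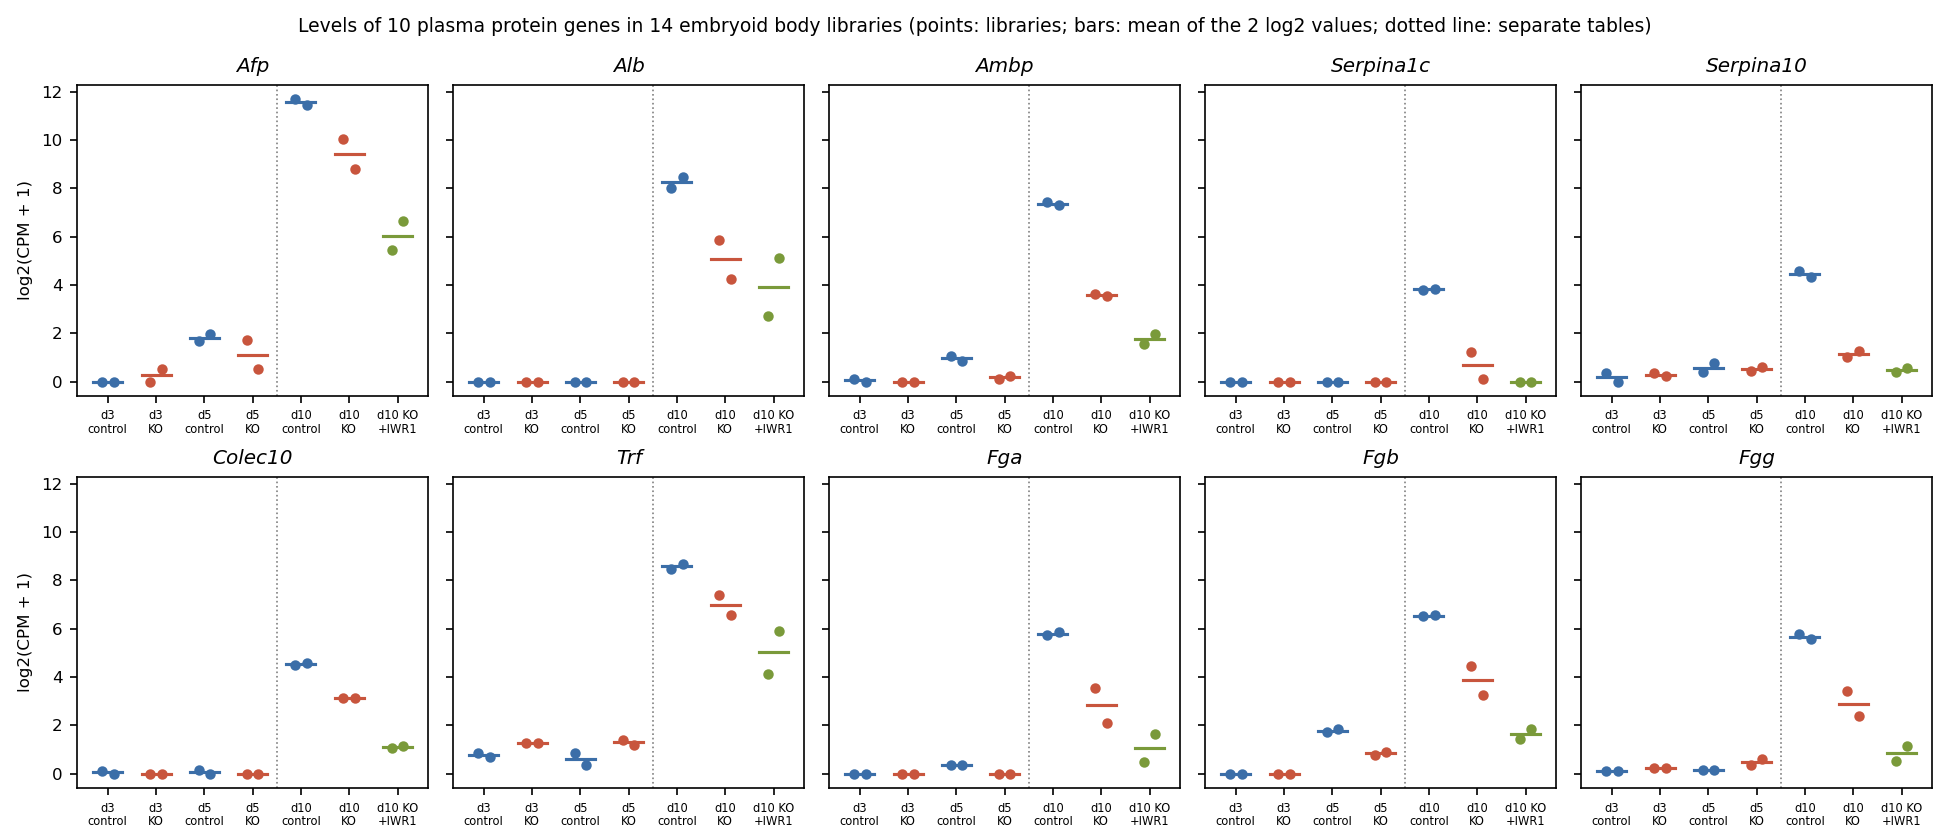
Level of each of the 10 genes in every library, as log2(CPM + 1), with days 3 and 5 left of the dotted line and day 10, a separately deposited table, right of it. Points are libraries and bars the mean of a group's 2 log2 values; all early levels are below 3 CPM, with Afp highest at 2.88 CPM in day 5 control, and at day 10 control lies above KO for every gene.

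The albumin pair held most of the counts. Afp was 3343 and 2778 CPM in the control libraries, 1040 and 450 CPM in KO and 42.7 and 98.6 CPM in KO with IWR1. The 3 groups did not overlap. Against control, KO had a log2 difference of -2.04 ± 0.54 (SE; adjusted p 0.0892), which was not called; DESeq2 called it (adjusted p 0.000251), as did the fit without a filter on low counts (0.0137). With IWR1, Afp fell 10.6-fold below KO (adjusted p 0.0185) and 43.3-fold below control (adjusted p 0.00712). The first of these calls was lost without IWR1 library 1 (adjusted p 0.0695).

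Alb was 257 and 356 CPM in control, 57.2 and 17.9 CPM in KO and 5.53 and 33.8 CPM in KO with IWR1. It was the only 1 of the 10 in which KO and KO with IWR1 overlapped, since the second IWR1 library lay between the KO libraries. The log2 difference of KO from control was -3.03 ± 0.90 (SE; adjusted p 0.119). That of IWR1 from KO was -0.94 ± 0.85 (adjusted p 0.468), and it turned to 0.16 without KO library 1 (adjusted p 0.931). IWR1 against control gave -3.96 ± 0.94 (adjusted p 0.0501), and was called without IWR1 library 2 (0.0276), by DESeq2 (0.00239) and with RLE size factors (0.0496).

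Because both genes were read in the same library, their ratio is free of scaling. Per kilobase of the longest coding transcript (2063 bases for Afp, 2034 for Alb), Afp exceeded Alb 12.8-fold and 7.68-fold in control, 17.9-fold and 24.8-fold in KO, and 7.61-fold and 2.87-fold in KO with IWR1. The KO libraries had the highest ratios and the second IWR1 library the lowest. Afp made up 76.2% and 70.2% of the counts of the 10 genes in control, 78.5% and 75.3% in KO, and 60.4% and 48.8% with IWR1. Together the 10 genes took 0.462% and 0.427% of all counts in control, 0.132% and 0.0548% in KO, and 0.00647% and 0.0213% with IWR1.

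**Figure D2:**
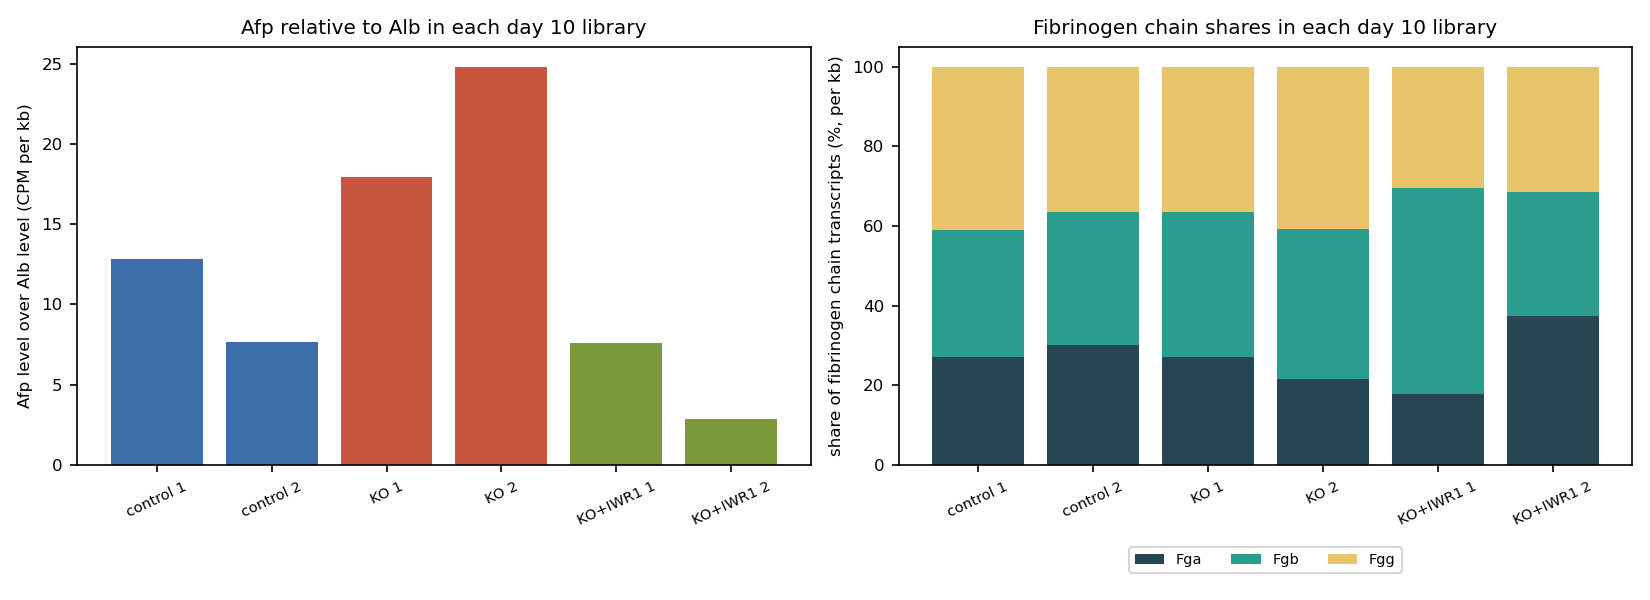
Left, bars give the Afp level over the Alb level (CPM per kilobase) in each of the 6 day 10 libraries, highest in the KO libraries (17.9 and 24.8). Right, stacked bars give the share of Fga, Fgb and Fgg in the fibrinogen chain transcripts of each library, in percent per kilobase; Fgb reaches 51.9% in IWR1 library 1.

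Afm and Gc, for afamin and the vitamin D-binding protein, belong to the same family, and Afm lies 10.03 kb from Afp. Afm averaged 11.2 CPM in control, 1.16 CPM in KO and 0.145 CPM with IWR1. Both were called lower in KO (log2 -3.27, adjusted p 0.0299, and -3.55, adjusted p 0.0118), so 2 of the 4 family genes had a call in that comparison.

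The carriers Trf and Ambp behaved differently between replicates. Trf encodes transferrin, the iron carrier of plasma; the transferrin added to the medium is protein and adds no RNA. Trf was 360 and 415 CPM in control, 165 and 93.8 CPM in KO and 16.5 and 59.0 CPM with IWR1. The groups did not overlap, but the difference of KO from control was not called (log2 -1.58 ± 0.58, adjusted p 0.193; DESeq2 0.0193). IWR1 against KO was not called either (-1.78, adjusted p 0.0868; called without IWR1 library 2, 0.0182, and by DESeq2, 0.00427), and IWR1 against control was called 10.3-fold lower (adjusted p 0.0261). This last call was lost without control library 1 (adjusted p 0.0743) or control library 2 (0.0807). A neighbouring model, Gm20425, shares exons with Trf on the same strand, so reads of the pair could be split between them. It was 48.5 and 31.9 CPM in control, 33.6 and 35.6 CPM in KO, and 17.6 and 36.9 CPM with IWR1, which is below Trf in the 4 libraries without IWR1 and in IWR1 library 2 and above it in IWR1 library 1.

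Ambp encodes the precursor of alpha-1-microglobulin, a haem scavenger, and of bikunin, the light chain of the inter-alpha-trypsin inhibitors. It was 173 and 155 CPM in control, 11.2 and 10.6 CPM in KO and 1.97 and 2.92 CPM with IWR1. The replicates of each group were close and the groups far apart. Ambp fell 15.0-fold in KO (log2 -3.91 ± 0.26, adjusted p 0.00327) and a further 4.49-fold with IWR1 (adjusted p 0.00900). Both calls held without any single library, with adjusted p up to 0.0223 and 0.0307. The heavy chains that bikunin joins are encoded by Itih1 to Itih4. Itih2, the most abundant, averaged 101 CPM in control, 8.03 CPM in KO and 1.34 CPM with IWR1. Itih1, Itih2 and Itih3 were called lower in KO (log2 -4.06, -3.66 and -3.41), and Itih4 averaged 3.73, 0.561 and 0.307 CPM without a call there. Itih1 had 114 and 118 counts in control and 3 and 10 in KO. It passed the filter on low counts only with its control libraries, which favoured its direction.

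The serpins include the strongest and the least certain values. Serpina10 encodes the protein Z-dependent inhibitor of coagulation factor X. It was 22.6 and 19.1 CPM in control, 0.995 and 1.42 CPM in KO and 0.331 and 0.469 CPM with IWR1. KO was 17.3-fold lower than control (log2 -4.11 ± 0.32, adjusted p 0.00551), a call that held without any single library (adjusted p up to 0.0316). IWR1 was 3.03-fold lower than KO (adjusted p 0.0326), and this call was lost without KO library 2 (adjusted p 0.0909) or IWR1 library 1 (0.137). Its cofactor gene Proz averaged 6.01, 1.13 and 0.441 CPM and was called lower in KO (log2 -2.40, adjusted p 0.0366). Its target gene F10 averaged 11.2, 4.31 and 2.66 CPM.

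Serpina1c is 1 of 5 mouse genes for alpha-1-antitrypsin, the plasma inhibitor of neutrophil elastase. It had 553 and 498 counts in control, 55 and 3 in KO and 0 and 0 with IWR1, or 12.9 and 13.2, 1.33 and 0.0820, and 0 CPM. Serpina1c passed the filter on low counts only with its control libraries, so levels below control were favoured in advance. The difference of KO from control was not called (log2 -4.17 ± 0.96, adjusted p 0.0762). It was called without KO library 1 (log2 -7.30, adjusted p 0.00994), which leaves the KO library with 3 counts, and without KO library 2 (-3.29, adjusted p 0.0351). With IWR1 it was at least 21.0-fold lower than KO, without a call (adjusted p 0.0726; called without KO library 2, 0.0124, and by DESeq2, 0.00832), and at least 368-fold lower than control (adjusted p 0.0211), with floors of 3 counts over the group. The call against control was lost without control library 1 (adjusted p 0.0591), control library 2 (0.0540) or IWR1 library 1 (0.0735). Its coding transcript matches those of Serpina1a, Serpina1b, Serpina1d and Serpina1e at 96.4% to 98.5% of aligned bases, so the split of reads among the 5 is uncertain. Summed over the 5, the level was 82.5 and 98.7 CPM in control, 8.64 and 2.49 CPM in KO and 0.642 and 2.98 CPM with IWR1. As a sum, KO was called lower (log2 -4.02, adjusted p 0.0415). Taken singly, 3 of the 5 were called lower in KO (Serpina1a, Serpina1b and Serpina1e; 1 with total counts, 0 to 5 when single libraries were left out), 0 with IWR1 against KO (2 lower at an unadjusted p under 0.05, 3 by DESeq2) and 5 with IWR1 against control (1 to 4 when single libraries were left out). Serpina1a led the family with 46.6% and 47.7% of its counts in control, and Serpina1c had 15.6% and 13.4%. Serpina1e, with 45 and 38 counts in control and 4 and 0 in KO, also passed the filter only with its control libraries.

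Fga, Fgb and Fgg encode the 3 chains of fibrinogen, which assemble in pairs and are cut by thrombin to form the clot. Fga was 52.4 and 57.2 CPM in control, 10.8 and 3.28 CPM in KO and 0.393 and 2.15 CPM with IWR1. Fgb was 91.5 and 92.8, 21.2 and 8.53, and 1.70 and 2.62 CPM in the same order. Fgg was 53.4 and 46.5, 9.73 and 4.18, and 0.455 and 1.21 CPM. For each chain the 3 groups did not overlap, and KO library 1 was above KO library 2.

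Fgb fell 6.18-fold in KO (log2 -2.63 ± 0.45, adjusted p 0.0280) and Fgg 7.17-fold (-2.84 ± 0.52, adjusted p 0.0325). Fga had a like difference with a wider error (-2.96 ± 0.77, adjusted p 0.0853) and no call. The Fgb call was lost without control library 1 (adjusted p 0.118) or control library 2 (0.0952), and the Fgg call without either (0.150 and 0.106) or without KO library 2 (0.0908). With IWR1, Fgb fell a further 6.94-fold (adjusted p 0.0183) and Fgg 8.53-fold (adjusted p 0.0217), both without a call when IWR1 library 1 was left out (0.0882 and 0.0851). Against control, all 3 chains were called lower with IWR1, by 42.9-fold to 61.2-fold; the Fga call was lost without control library 1, control library 2 or IWR1 library 1 (adjusted p 0.0546, 0.0532 and 0.0514). A lincRNA on the opposite strand, Gm30097, overlaps an exon of Fgg.

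Per kilobase, in control, Fgg made up 40.9% and 36.5% of the 3, Fgb 32.0% and 33.3%, and Fga 27.0% and 30.2%. In KO the shares were 36.5% and 40.7%, 36.4% and 37.9%, and 27.2% and 21.5%. Each chain thus kept between 21.5% and 40.9% in the 4 libraries without IWR1. With IWR1 the libraries differed from each other, with Fga at 17.7% and 37.5%, where its counts were only 19 and 78.

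Among 12 genes for fibrinogen's partners in clotting and clot removal, 3 were called lower and 1 higher in KO. F2, the gene of thrombin's precursor, averaged 21.0 CPM in control and 3.59 CPM in KO (log2 -2.54, adjusted p 0.0462), and Plg, for plasminogen, 25.5 and 2.34 CPM (-3.44, adjusted p 0.0298). Plat, the tissue activator of plasminogen, averaged 53.1 and 114 CPM and was called higher (2.14-fold, adjusted p 0.0295). The median of the 12 was 0.11, and -0.05 with total counts in place of scaling factors, which also ended the higher call. When single libraries were left out, 0 to 2 were called lower. With IWR1 3 were called lower against KO (0 to 3 when single libraries were left out), and 4 lower and 1 higher against control (3 to 4 and 0 to 1).

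Colec10 encodes collectin liver 1, a soluble lectin that starts complement on microbial sugars together with Colec11 and the Masp proteases. It was 21.5 and 22.9 CPM in control, 7.74 and 7.84 CPM in KO and 1.08 and 1.21 CPM with IWR1, with the closest replicates of the 10 genes in KO and with IWR1. KO was 2.85-fold lower than control (log2 -1.51 ± 0.22, adjusted p 0.0170), and IWR1 6.81-fold lower than KO (adjusted p 0.00611). The first call was lost without control library 1 or 2 (adjusted p 0.141 and 0.142) or KO library 2 (0.0766), while the second held without any single library. Of its partners, Colec11 averaged 6.66, 4.65 and 2.66 CPM, in the same order of groups, and Masp1 42.4, 57.7 and 23.2 CPM. Neither was called in KO. Of 7 genes tested in the lectin pathway list, 1 was called in KO, the scavenger receptor gene Colec12 (3.09-fold higher; not called with total counts or in any removal of a single library), with a median of 0.09. With IWR1 against KO 2 were called lower, Colec12 and Masp1, and against control 0 (3 lower at an unadjusted p under 0.05, 2 by DESeq2).

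**Figure D3:**
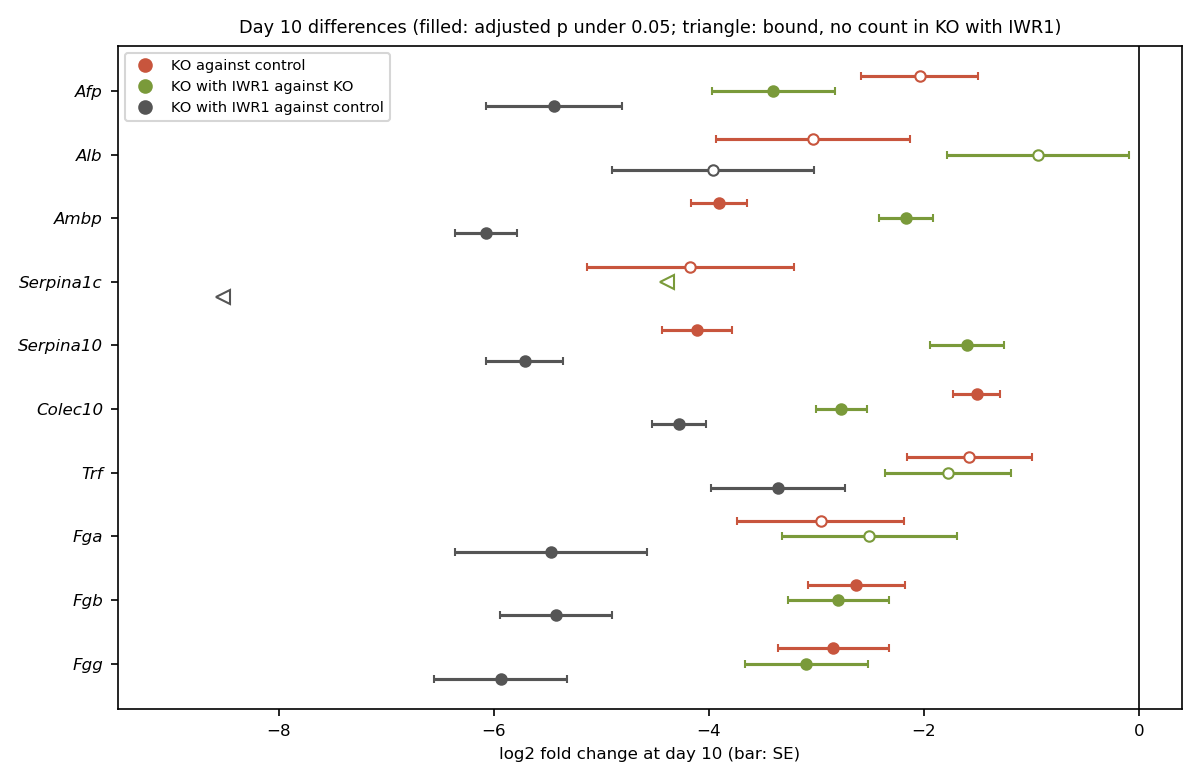
Log2 fold change of each gene at day 10 with its SE as bar, for KO against control, KO with IWR1 against KO, and KO with IWR1 against control. Filled points have an adjusted p under 0.05, and open triangles mark bounds for Serpina1c, which had no count with IWR1 (called against control, not against KO); every value is below 0, from -0.94 for Alb in IWR1 against KO downward.

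In the comparison of IWR1 with untreated KO, 6 of the 10 were called lower (Afp, Ambp, Serpina10, Colec10, Fgb and Fgg) and 0 higher; of all genes, 13.9% were called, 8.08% lower and 5.77% higher. In 9 of the 10 the groups did not overlap, where 30.2% of all genes were lower without overlap. The median log2 difference was -2.64 against -0.01 over all genes, and it was the same with Serpina1c at its bound. Against control, 9 of the 10 were called lower, all but Alb, with 9.12% of all genes called, 6.13% lower and 2.99% higher, and all 10 were lower without overlap (33.5% of all genes). Here the median was -5.45 against 0.02. The number called ranged from 2 to 8 and from 6 to 10 when single libraries were left out; it was 2, Ambp and Colec10, without IWR1 library 1 in the comparison with KO. The 3 day 10 comparisons share libraries, so their values for a gene are not independent.

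The replicates of KO and of IWR1 differed more than those of control. The median ratio of the higher to the lower replicate over the genes was 1.13 in control, 2.32 in KO and 2.31 with IWR1. In KO, library 1 was higher for 8 of the 10, by 3.28-fold for Fga and 3.20-fold for Alb, while Ambp, Colec10 and Serpina10 differed 1.06-fold, 1.01-fold and 1.43-fold. With IWR1, library 2 was higher for all 9 genes that had counts, by 6.12-fold for Alb and 5.47-fold for Fga. KO library 1 also had more of Cubn, the cubilin receptor of yolk sac visceral endoderm (76.0 against 8.77 CPM), Amn, its partner amnionless (7.23 against 1.89 CPM), and Hnf4a (16.2 against 5.03 CPM). With IWR1, Cubn (0.642 CPM in library 1, 1.19 CPM in library 2) and Hnf4a (0.973 and 1.19 CPM) were higher in library 2. Amn was instead higher in library 1 (0.248 against 0.0551 CPM, from 12 and 2 counts). The part of these 3 genes in the difference between replicates was not tested.

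The order of the 10 genes in control, per kilobase, ran from Afp (1484 ± 194 CPM per kilobase, SD, n = 2) through Alb (151 ± 34.7), Trf (151 ± 15.1) and Ambp (129 ± 9.93) to Fgg (28.7 ± 2.79), Fgb (24.2 ± 0.245) and Fga (21.2 ± 1.32), and then Serpina1c (9.58 ± 0.150), Serpina10 (5.97 ± 0.703) and Colec10 (4.84 ± 0.216). The libraries of Alb overlapped those of Trf and of Ambp, while Trf and Ambp, like the other neighbours in this order, did not overlap. In KO, Afp was again first (361 ± 202 CPM per kilobase), followed by Trf (50.4 ± 19.7), Alb (18.5 ± 13.7) and Ambp (8.62 ± 0.334), of which Alb and Ambp overlapped. Colec10 moved above both serpins (1.70 ± 0.0165 against 0.520 ± 0.651 for Serpina1c and 0.345 ± 0.0863 for Serpina10). With IWR1 the order of means again began with Afp (34.2 ± 19.2), Trf (14.7 ± 11.7), Alb (9.68 ± 9.84) and Ambp (1.93 ± 0.532). The other 6 were at 0.566 CPM per kilobase or less. The libraries of Trf overlapped those of Afp and of Alb there.

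Before day 10 these genes were close to the limit of detection. No gene had more than 29 counts in any of the 8 libraries of days 3 and 5. Alb and Serpina1c had 0 counts in all 8, which in each library allows up to 3 counts, and only Afp, Trf and Fgb, 3 of the 10, passed the filter on low counts. Trf was the 1 gene of these 3 with counts in every library.

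Fgb had 0 counts in the 4 day 3 libraries. At day 5 it had 23 and 26 counts in control and 8 and 10 in KO, so that day 5 control lay above day 5 KO. From day 3 to day 5 it rose at least 18.4-fold in control (adjusted p 0.000375) and at least 6.16-fold in KO (adjusted p 0.00371). Fgb passed the filter on low counts through its day 5 control libraries, where it was highest. With 0 counts at day 3 it could only rise, so the direction of both changes was set by that filter. At day 5 Fgb was 3.02-fold lower in KO (log2 -1.59 ± 0.48, adjusted p 0.0312), 1 of 3 genes called lower. Its entry through the day 5 control libraries favoured this direction too, so the call carries that selection. Of all 14430 genes 43.5% were called on that day, 21.7% lower and 21.9% higher. DESeq2 did not call it (adjusted p 0.299), and the call was lost without day 5 control library 1 (0.104) or 2 (0.136).

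Afp had 0 counts in both day 3 control libraries and 0 and 5 in day 3 KO. At day 5 it had 22 and 29 counts in control and 25 and 5 in KO, so the groups overlapped. It rose at least 19.2-fold from day 3 to day 5 in control (adjusted p 0.00787). Afp and Fgb are the 2 of 3 genes called higher over that interval in control, where 60.8% of all genes were called, 30.6% higher, and Fgb the 1 of 3 in KO, where 53.8% were called, 28.3% higher. Both genes passed the filter on low counts only through day 5 libraries, so a rise was favoured in advance. These numbers of calls therefore cannot be weighed against the shares of all genes. For Afp the higher day 3 KO library and the lower day 5 KO library both had 5 counts, while for Fgb the days were apart; over all genes, 39.8% were higher and 37.4% lower without overlap in KO. In KO Afp had an adjusted p of 0.0954, and it was called without KO library 2 of day 5 (0.000698). Afp at day 5 in KO against control was -0.91 ± 0.81 (adjusted p 0.402), and -2.50 without KO library 1 (adjusted p 0.00811).

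Trf went the other way at the early days. At day 3 it had 9 and 7 counts in the control libraries against 16 and 17 in the KO libraries, and at day 5 8 and 3 against 18 and 15, so KO lay above control on both days. Trf passed the filter on low counts through its KO libraries, so this direction was favoured by that filter. Among all genes, 36.7% were higher and 37.8% lower without overlap in KO at day 3, and 35.4% were higher without overlap at day 5. The log2 differences were 1.01 ± 0.50 (adjusted p 0.157) and 1.41 ± 0.54 (adjusted p 0.0589), without a call, although day 5 was called with total counts in place of scaling factors (0.0461) and without day 5 control library 1 (0.0470). At day 3 edgeR and DESeq2 called 0 of the 3 genes, with 0 at an unadjusted p under 0.05, where 16.9% of all genes were called lower and 16% higher. For the change of the KO effect between days 3 and 5, 24.2% of all genes were called and 0 of the 3, again with 0 at an unadjusted p under 0.05, and 0 by DESeq2.

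The other 7 genes were not tested at these days. Ambp had 11 and 8 counts in day 5 control and 1 and 2 in day 5 KO, and 1 count in all of day 3. Serpina10 had 0 to 7 counts per library, Fgg 1 to 6, Fga 3 and 3 in day 5 control and 0 elsewhere, and Colec10 0 or 1. Set beside these values, the control libraries of day 10 had 5853 to 7409 counts of Ambp and 865 to 922 of Colec10, in deeper libraries and a table that was deposited and fitted separately.

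The other genes of the class gave a wider view at day 10. Of 42 further plasma proteins of the liver, 41 were in the tables under the listed symbol and 33 were tested. In KO 18 of these were called lower and 0 higher, with a median log2 difference of -2.95. Of all genes, 3.35% were called lower and 1.92% higher. Some of the 33 passed the filter on low counts only with their control libraries, so levels below control were favoured in advance. F12, for example, had 105 and 83 counts in control, 8 and 2 in KO and 0 and 0 with IWR1. The 18 therefore cannot be weighed fully against the share of all genes. Serpinf2, the inhibitor of plasmin, averaged 120 CPM in control, 10.6 CPM in KO and 2.63 CPM with IWR1, and Vtn, for vitronectin, 112, 3.76 and 12.3 CPM. C3, for the central complement component, averaged 61.8, 13.4 and 1.61 CPM. The number called in KO was 1 without control library 1, 6 without control library 2 and 8 without KO library 2. With IWR1 against KO, 10 of the 33 were called lower and 1 higher, Vtn (3.27-fold), with 4 lower under total counts, 2 without KO library 1 and 1 without IWR1 library 1. Against control 26 were called lower and 0 higher with IWR1, with a median of -4.90, or -4.88 with genes without counts at their bounds; 17 were called without IWR1 library 1.

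Of 17 genes for the liver's transcription factors, 8 were called lower in KO and 0 higher (12 lower by DESeq2), with a median of -2.20. Cebpb had a 2.05-fold higher level in KO, without overlap and without a call (adjusted p 0.163). Among them were Foxa1 (47.3 CPM in control, 3.11 CPM in KO, 4.33 CPM with IWR1), Foxa2 (17.9 to 18.1 in the control libraries, on average 2.68 in KO and 17.2 with IWR1) and Prox1 (36.0, 4.34 and 7.79). Zhx2, known as a repressor of Afp in the adult liver, was not called. Hnf4a averaged 42.9, 10.6 and 1.08 CPM, with no call in KO and a call with IWR1 against KO (log2 -3.30, adjusted p 0.0187). The number called in KO was 1 without control library 1 and 2 without control library 2. IWR1 against KO gave 5 lower (0 without IWR1 library 1, 1 without KO library 1) and 1 higher, Foxa2, 6.43-fold. Against control 10 were called lower with IWR1 and 0 higher. In the libraries with IWR1, Foxa2 was thus near its control level while the 10 genes were at their lowest.

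The label liver-type describes the products and not a mature liver cell. Of 20 intracellular hepatocyte genes, G6pc and Cyp3a11, for glucose release and drug oxidation, had 0 counts in all 14 libraries, and 13 were tested at day 10. In KO 2 of these were called lower and 0 higher (0 to 2 called when single libraries were left out). Among them is Otc, for a urea cycle enzyme, which averaged 1.37 CPM in control and 0.158 CPM in KO. Otc had 63 and 48 counts in control and 4 and 8 in KO. It passed the filter on low counts only with its control libraries, which favoured this direction. With IWR1 against KO 2 were called lower and 1 higher, Arg1, and against control 4 and 1; single removals gave 0 to 2 and 1, and 2 to 5 and 0 to 1. Their summed level was 45.2 to 57.6 CPM in control, 12.4 to 21.2 CPM in KO and 37.2 to 80.7 CPM with IWR1. The last range held Arg1, for arginase, which averaged 4.32, 2.12 and 54.2 CPM.

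Marker lists of other cells differed among the groups to unequal extents, and their part in the results on the 10 genes was not tested. The 16 visceral yolk sac endoderm genes, of which Rhox5 had no count at day 10, summed to 506 to 523 CPM in control, 207 to 535 CPM in KO and 55.6 to 82.4 CPM with IWR1. Of 15 tested, edgeR called 0 in KO (2 higher and 3 lower at an unadjusted p under 0.05; DESeq2 called 2 higher and 3 lower), with a median of 0.25. Without KO library 1, 4 were called lower in KO, and without KO library 2, 2 were called higher. With IWR1 against KO 11 were called lower (7 without KO library 1, 3 without IWR1 library 1, 6 without IWR1 library 2) with a median of -3.17, among them Dab2 and Spink1. The 12 definitive and gut endoderm genes summed to 628 to 661 CPM in control, 122 to 206 CPM in KO and 193 to 330 CPM with IWR1. In KO 4 were called lower, among them the epithelial genes Epcam and Cldn6, and 1 higher (0 to 5 and 0 to 1 when single libraries were left out); with IWR1 against KO 4 were called higher and 1 lower (0 to 6 and 1 when single libraries were left out).

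The 8 embryonic fibroblast genes summed to 7803 to 8408 CPM in control, 20600 to 26463 CPM in KO and 1302 to 3487 CPM with IWR1, with counts for all 8 in each group. Of these, 2 were called higher in KO (0 with total counts) and 0 lower, with 0 to 2 higher when single libraries were left out. In all, 6 were called lower with IWR1 against KO (5 to 6 when single libraries were left out), with Col1a1, Col1a2, Col3a1 and Postn among them, and 1 higher, Thy1 (3.49-fold; 0 to 1 in single removals). The 12 parietal endoderm genes summed to 3387 to 3916, 5808 to 6156 and 1506 to 2021 CPM, with 2 called higher in KO (0 with total counts) and 5 lower with IWR1 against KO (0 to 7 when single libraries were left out). The 7 megakaryocyte and platelet genes, which mark cells that store fibrinogen, summed to 31.7 to 52.8, 72.7 to 82.6 and 50.3 to 56.1 CPM, with 0 called in KO (4 higher at an unadjusted p under 0.05; DESeq2 called 2 higher). The 8 oligodendrocyte genes, which mark a brain cell that makes transferrin, summed to 41.4 to 42.0, 27.4 to 35.2 and 50.3 to 65.5 CPM, with 0 called in KO (2 lower at an unadjusted p under 0.05, 0 by DESeq2) and 3 higher with IWR1 against KO, Sox10 and Cldn11 among them.

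**Figure D4:**
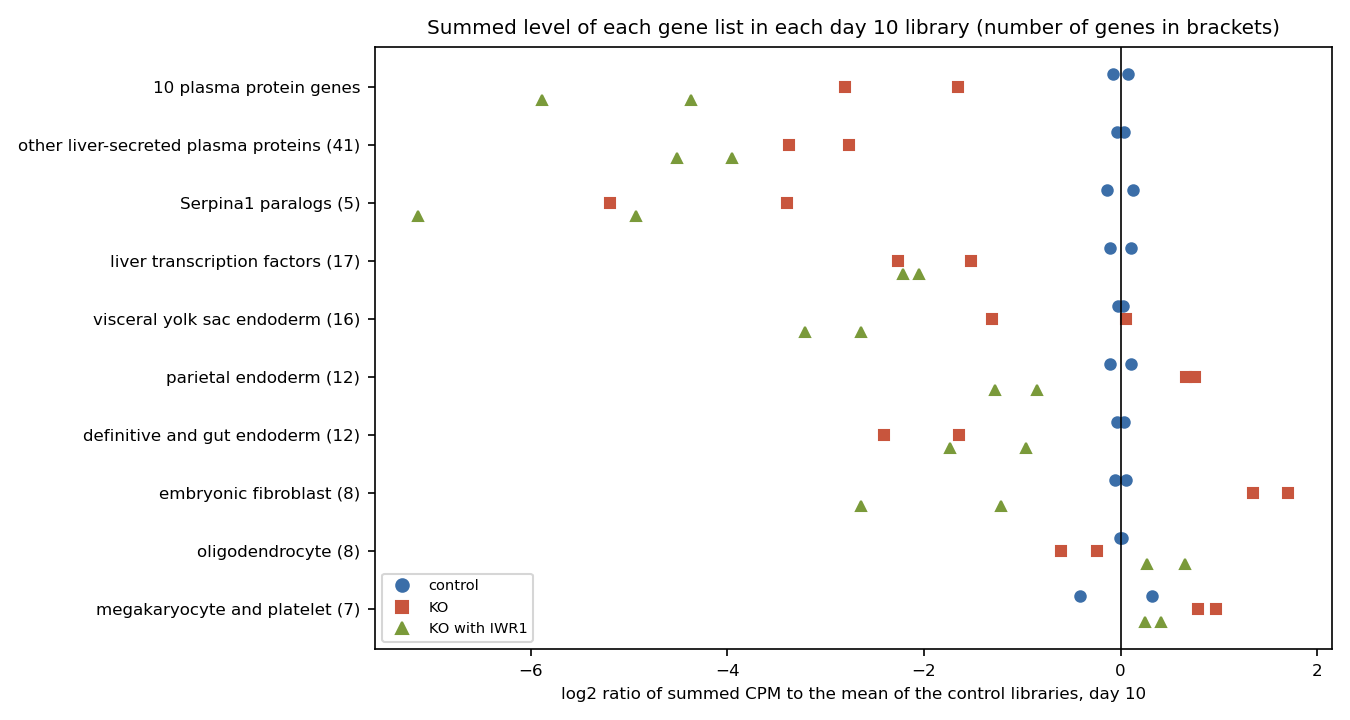
Summed CPM of the 10 genes and of 9 other gene lists in each day 10 library, as log2 ratio to the mean of the control libraries; points are libraries and brackets give the number of genes. The 10 genes lie between -1.65 and -2.80 in KO and between -4.37 and -5.88 with IWR1, the embryonic fibroblast genes above 0 in KO and below 0 with IWR1.

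Read against genes of those cells within a library, the level of Afp gave different pictures. Afp counts per Epcam count were 23.5 and 23.3 in control, 40.4 and 21.3 in KO and 0.932 and 3.48 with IWR1. Afp counts per Hnf4a count were 79.6 and 63.3 in control, 64.4 and 89.4 in KO and 43.9 and 83.2 with IWR1. Afp per Epcam was thus lower in both IWR1 libraries than in the other 4, while Afp per Hnf4a overlapped among the 3 groups. Alb counts per Hnf4a count were 6.12 and 8.12 in control, 3.54 and 3.55 in KO and 5.68 and 28.6 with IWR1, so for Alb the KO libraries lay below control and below IWR1.

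Trf works among the genes of iron uptake, storage and export. Of 11 tested, 1 was called higher in KO, the ferrireductase gene Steap3, and 1 lower, the iron oxidase gene Heph, with a median of -0.03; the higher call was lost with total counts and in every removal of a single library. Tfrc, the transferrin receptor, averaged 338 CPM in control, 197 CPM in KO and 328 CPM with IWR1 without a call in KO, where its libraries did not overlap those of control. With IWR1 against KO, Steap3 was 1 of 2 called lower and Heph the 1 called higher. Against control, 0 of the 11 were called with IWR1, with 1 higher and 1 lower at an unadjusted p under 0.05 and 0 called by DESeq2.

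Several of the 10 genes are neighbours in the genome (GENCODE vM21, mm10). Alb (chr5:90460897-90476602) and Afp (chr5:90490737-90508907) lie 14.1 kb apart on the plus strand of chromosome 5. Fgg (chr3:83007724-83015049), Fga (chr3:83026076-83033627) and Fgb (chr3:83040141-83049863) follow each other on chromosome 3 with gaps of 11.03 and 6.51 kb, Fgb on the minus strand. Serpina10 (chr12:103614786-103631444) and Serpina1c (chr12:103894926-103904887) lie in the serpin cluster on chromosome 12, 263 kb apart on the minus strand. Ambp (chr4:63143275-63154799, minus strand), Trf (chr9:103204001-103230444, minus strand) and Colec10 (chr15:54410774-54466358, plus strand) stand alone.

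The nearest other protein-coding genes differed in their levels. Plrg1, a splicing factor gene 5.66 kb from Fgb, averaged 67.7 CPM in control, 68.1 CPM in KO and 123 CPM with IWR1, and Srprb, for a receptor of the secretory pathway 1.86 kb from Trf, 61.8, 74.1 and 101 CPM. Zfp618, 3.57 kb from Ambp, averaged 50.5, 40.1 and 41.0 CPM. On the other side of Ambp, Kif12 averaged 11.5, 0.739 and 0.231 CPM. Serpina6, for the cortisol carrier of plasma, 15.2 kb from Serpina10, averaged 43.3, 5.00 and 1.20 CPM. Ppp4r4, 0.955 kb from Serpina10 on its other side, averaged 6.50, 1.81 and 3.33 CPM. On the far side of the fibrinogen genes, Lrat, for an enzyme that stores vitamin A, 104 kb from Fgg, averaged 0.598 CPM in control, 15.5 CPM in KO and 1.88 CPM with IWR1. By these group means, neighbours were lower in KO in some places and near their control level in others. Lrat, 104 kb from Fgg, had a higher mean in KO.

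Across all 14 libraries, the genes whose log2(CPM + 1) was most like the mean of the 10 were Igfbp1 (Pearson r 0.996), Serpinf2 (0.993), Havcr2 (0.992), Apoa2 (0.990) and Serpind1 (0.990), out of 12750 protein-coding genes with at least 5 CPM in a group. The most like single genes included Bmp10 for Afp (0.993), Serpind1 for Ambp (0.997), Srpk3 for Colec10 (0.997), Itgam for Trf (0.996), F2 for Fgb (0.984) and Serpina6 for both Fga (0.996) and Fgg (0.993). These correlations are a description: the points share their libraries and the step from low levels at days 3 and 5 to day 10.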

How the data were processed

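The data are 14 paired-end RNA-seq libraries of mouse embryoid bodies. Estimated counts for each gene were deposited by the authors as whole numbers, days 3 and 5 in 1 table and day 10 in another; per the submitters' processing notes they were made with kallisto 0.46.2 on mm10. Neither the use of strand in counting nor the annotation release is stated in the labels used here, so genes that overlap on opposite strands cannot be told apart. Symbols and positions came from GENCODE vM21, with 35968 identifiers matched and 79 not. Groups came from the labels, which do not say that libraries of a group were separate cultures; p-values then reflect only how these samples vary, which may be technical variation.

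Each table was fitted with edgeR 4.0.16 in R 4.3.3 (filterByExpr, TMM scaling, robust quasi-likelihood F-test, two-sided, Benjamini-Hochberg adjustment over all genes tested, threshold 0.05), with all groups of a table in 1 fit. This gave 14430 genes at days 3 and 5 and 17022 at day 10, with 4 and 3 residual degrees of freedom. No test crossed the tables. SE is the absolute log2 fold change over the square root of F. DESeq2 1.42.0, other scalings, no filter, a replicate block, the fit of a day alone, the summed Serpina1 genes and the removal of each library were alternatives. Groups without a count were set to 3 counts over the group for a bound, which covers counting error only. The fit was tested on simulated data. Promoters came from RefSeq for GRCm38.p6, and transcripts were aligned with Biopython 1.88.

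The 10 genes, the 13 other gene lists and the tests were chosen with earlier results of these data known. Genes named are the 10 in every comparison, the 4 members of each list with the highest mean CPM as examples, and neighbours, paralogs and partners of the 10; Hnf4a, Plg, Otc, Steap3, Heph, Amn, Cubn, Sox10, Rhox5, G6pc, Cyp3a11 and the nearest genes were named after their values were seen. Sequence reads were not used here, and some genes of the lists are not reported here by name.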

Additional observations from a re-analysis of the deposited data

Results flagged for a closer look

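The difference of KO from control had opposite directions for Trf, the transferrin gene, early and late. At day 3 both KO libraries were above both control libraries, by 1.02 on the log2 scale of mean CPM, and at day 10 both were below. At day 5 both KO libraries were again above both control libraries, by 1.43 on that scale, in contrast to day 10. The difference between the days was not tested, since day 10 was deposited and fitted separately. Trf passed the early filter on low counts through its KO libraries, so the early direction was favoured by that filter. Among all genes, 36.7% were higher without overlap in KO at day 3 and 35.4% at day 5. The early values rest on 3 to 18 counts per library, and edgeR called the difference of KO from control for Trf on none of the 3 days with the settings reported, while the day 5 difference was called with total counts and without day 5 control library 1, and the day 10 difference by DESeq2.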

How the results depend on the processing

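With 2 libraries per group, calls at day 10 moved more than directions. Over 12 alternatives, 299 of the 300 day 10 values of the 10 genes were below 0, as in the values reported; the exception was Alb in IWR1 against KO, which ranged from -2.76 to 0.16 when single libraries were left out. Trf had no call in the early changes over time and reversed there without single libraries: it ranged from -1.21 to 0.17 for day 5 against day 3 in control (day 5 control library 2 out), from -0.12 to 0.16 in KO (day 5 KO library 1 out) and from -0.13 to 1.25 for the change of the KO effect (day 5 control library 2 out). Removing single libraries gave 2 to 6 of the 10 genes and 62 to 810 of all genes called in KO against control at day 10 (5 and 897 reported), 2 to 8 and 544 to 3103 in IWR1 against KO (6 and 2358), and 6 to 10 and 284 to 2163 in IWR1 against control (9 and 1553). At day 3 it gave 2566 to 2621 genes in all (4741 reported), at day 5 4088 to 7506 (6281) with 0 to 2 of the 3 genes tested, for day 5 against day 3 in KO 1 to 2 of the 3, and for the change of the KO effect 2073 to 5609 (3496) with 0 to 1. DESeq2 called 3010 genes at day 3, 0 of the 3 at day 5, 2313 genes for the change of the KO effect, and 1981, 4229 and 3402 genes in the day 10 comparisons, with 9 of the 10 genes in KO against control. Without a filter on low counts the day 10 comparisons had 1737, 3697 and 3093 calls. The fit of day 3 alone called 7367 genes. Total counts without scaling factors called 2 of the 3 genes at day 5. They moved the median of all genes by over 0.1 in 2 day 10 comparisons, from 0.02 to -0.14 for KO against control and from 0.02 to -0.09 for IWR1 against control, so changes there are relative to that shift. The split of calls into higher and lower went from 327 and 570 to 150 and 525 for KO against control at day 10, from 983 and 1375 to 1061 and 889 for IWR1 against KO, from 3155 and 3126 to 4014 and 2445 at day 5, and from 1932 and 1564 to 2569 and 1293 for the change of the KO effect. The cause of these moves was not tested, beyond the smaller number of libraries where one was left out.

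With the replicate number as a block, IWR1 against KO had 1233 genes called and IWR1 against control 948, with 5 and 9 of the 10 genes; Serpina10 lost its call in IWR1 against KO (adjusted p 0.0611). The labels do not say that same-numbered libraries share a culture or day, so the numbers were not taken as pairs. Deviations of same-numbered libraries from their group means had correlations of -0.02 to 0.05 at days 3 and 5 and of -0.32 to 0.24 at day 10. These values do not decide whether the libraries were paired.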
